A study of Mus musculus with 12 samples.

Results

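In the large arteries of the mouse embryo, cells that carried an active Ly6a-GFP reporter were compared with cells that did not, once among hematopoietic cluster cells (HC) and once among endothelial cells (EC), and the size of the GFP effect was then compared between the cell types. All 12 libraries of the study entered this comparison, 3 pools in each of 4 sorted populations. For every gene the GFP effect was the mean log2(FPKM + 1) of the GFP+ libraries minus that of the GFP− libraries, and the difference was the effect in HC minus the effect in EC. FPKM is the number of fragments per kilobase of transcript, scaled to the fragments of the library, a level that is relative within a library. A positive difference means that the GFP effect was higher in HC, and a negative one that it was higher in EC. Of 33531 genes in the table, 13278 reached FPKM 1 in at least 3 of the 12 libraries and were tested with limma, and 70 of them (0.527%) had a difference past the threshold of an adjusted p of 0.05.

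The embryos were at embryonic day 11.5 and all were positive for the transgene Tg(Ly6a-GFP), which came from the father, while the mothers were F1 hybrids of C57BL/6 and 129S1/SVImJ. The dorsal aorta, the umbilical and the vitelline arteries of 122 embryos were digested with collagenase. HC were gated as positive for c-Kit in addition to CD31, CD144 and ESAM, and EC as negative for c-Kit with the same other proteins. The yield in HC was 53000 GFP+ and 413000 GFP− cells, and in EC 377000 and 791000, so each of the 4 groups is a sort of pooled animals and not a set of single embryos. The labels do not say how the cells were divided among the pools, and GFP reports the transgene rather than the Sca-1 protein that Ly6a encodes.

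Blood stem cells arise in these arteries when some endothelial cells, called hemogenic endothelium, switch on blood regulators such as Runx1 and Gfi1, round up and leave the vessel wall through clusters that stick to its inner side. Ly6a-GFP is active both in part of the arterial endothelium and in part of the clusters, which include the cells that later act as stem cells. The endothelium of an artery also lays down matrix, among it the elastic fibres and the laminins of the basement membrane, and keeps its arterial identity through Notch signalling.

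Ly6a and Kit transcripts followed the gates within limits, while other blood genes set GFP− HC less apart from EC. The summed FPKM of 6 hematopoietic markers was 66.7 to 89.4 in GFP+ HC and 17.7 to 22.7 in GFP− HC. It was 13.2 to 26.0 in GFP+ EC and 7.38 to 17.9 in GFP− EC, so in this sum GFP− HC overlapped both EC groups. Ly6a itself stood at 6.83, 7.09 and 3.57 FPKM in GFP+ HC, 0.778, 1.47 and 0.0538 in GFP− HC, 8.82, 8.42 and 9.05 in GFP+ EC and 1.26, 1.37 and 0.0585 in GFP− EC. In both cell types the GFP+ libraries were above the GFP− ones without overlap, and the difference between the effects did not pass (−0.46 ± 0.52, adjusted p = 0.814). Kit was at 34.2, 39.2 and 33.2 FPKM in GFP+ HC, 19.2, 25.8 and 19.1 in GFP− HC, 13.3, 14.5 and 14.2 in GFP+ EC and 12.6, 17.6 and 18.6 in GFP− EC. Kit transcripts were thus present in the EC sorted as c-Kit negative, and the difference for Kit missed the threshold (0.90 ± 0.21, adjusted p = 0.0873). The endothelial sort genes Pecam1 (difference −0.17), Cdh5 (−0.40) and Esam (−0.05) and the leukocyte gene Ptprc (0.43) did not pass either, with adjusted p from 0.444 to 0.957. The differences of Ly6a, Ptprc and Esam changed sign under at least 1 alternative. Cd27, the receptor gene in the title of the study, had a difference of 1.43 ± 0.39, adjusted p = 0.151.

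FPKM sums ran from 555675 to 691948 per library and were highest in GFP− EC (625401 to 691948). Mitochondrially encoded genes took 8.53 to 8.76% of the sum in GFP− EC and 3.80 to 6.47% in the other 9 libraries. RNA of other cell types was present. The summed FPKM of 8 erythroid markers was 819 to 1136 in GFP+ HC, 6223 to 9543 in GFP− HC, 930 to 2371 in GFP+ EC and 3286 to 7625 in GFP− EC. That of 10 smooth muscle and mesenchyme markers was 216 to 469, 366 to 1086, 227 to 436 and 238 to 1023 in the same order, and in every population replicate 2 had the lowest sum. The 7 macrophage markers summed to 203 to 1267 in HC and to 7.23 to 27.9 in EC. None of the markers in these 3 lists was at 0 in all libraries. FPKM gives no read numbers, and depth is therefore unknown.

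**Figure D1:**
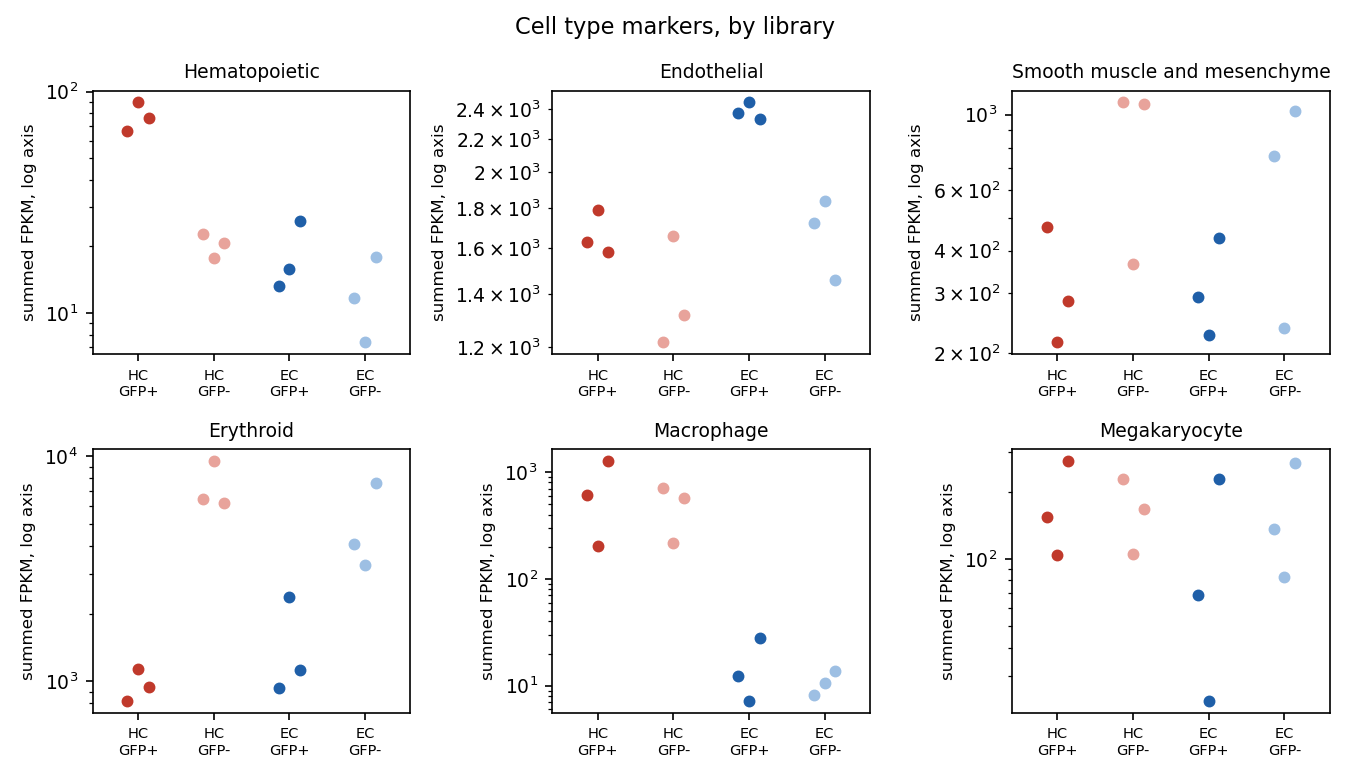
Summed FPKM of the marker genes of 6 cell types in each library, on a log axis. Each point is 1 library, in replicate order within its population. Erythroid sums are at most 1136 in GFP+ HC and at least 6223 in GFP− HC, and macrophage sums are at most 27.9 in the EC.

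Genes with a GFP effect in HC mostly had an effect of the same sign in EC. The effect passed the threshold for 566 genes in HC (4.26% of those tested; 396 higher in GFP+ cells, 2.98%, and 170 lower, 1.28%). It passed for 1789 genes in EC (13.5%; 924 higher, 6.96%, and 865 lower, 6.51%). The HC and EC effects come from different libraries, but both tests use the same spread estimate of a gene, taken from all 12 libraries. Calls in HC and in EC are therefore not independent. A set of 340 genes passed in both, 60.1% of the HC genes and 19.0% of the EC genes, and all 340 went in the same direction. Among the 396 genes higher in GFP+ HC, the median effect was 0.88 in HC and 0.66 in EC, and 93.7% had an EC effect of the same sign. Of the 170 lower in GFP+ HC, 94.1% kept the sign in EC, with medians of −0.76 and −0.51. Both sets were chosen by their HC effect, which raises its median size, so the medians do not compare effect sizes between the cell types. The effects correlated across all tested genes, which do not count as replicates, at Pearson 0.459 and Spearman 0.495. Of the 566 genes that passed in HC, 31 (5.48%) also passed for the difference, and of the 1789 in EC, 56 (3.13%).

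The 70 genes that passed for the difference divided into 25 positive (0.188% of the genes tested) and 45 negative (0.339%), and 830 positive and 696 negative genes had an unadjusted p under 0.05. In 11 of the 25 positive genes the effect passed in HC alone, in 11 it passed in EC alone as a lower level in GFP+ EC, and in 3 it passed in both as a higher level. Of the 45 negative genes, 28 were higher in GFP+ EC with no call in HC, 14 rose with GFP in both, and 3 were lower in GFP+ HC alone. No gene passed in opposite directions in HC and EC. All 70 differences had the same sign on the untransformed FPKM scale, as had 12611 of all 13278 genes tested. The median SE of a difference was 0.21 and the smallest difference that passed was 0.59. Just inside the threshold were Lsm5 (adjusted p = 0.0476) and Pglyrp2 (adjusted p = 0.04998), and just outside it Mmp14 (−0.71, adjusted p = 0.0501) and Fcho1 (1.18, adjusted p = 0.0512).

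The counts of genes depended on single libraries more than the signs did. Leaving out 1 library gave 4 to 14 positive genes without any 1 of the 6 HC libraries, the 3 GFP+ EC libraries or GFP− EC replicate 1, with the 4 reached without HC GFP+ replicate 2. It gave 32 without EC GFP− replicate 2 and 20 without EC GFP− replicate 3. Negative genes numbered 26 and 19 without HC GFP+ replicates 1 and 2, 25 and 26 without HC GFP− replicates 1 and 3, and 24, 26 and 21 without EC GFP+ replicates 1, 2 and 3. With FPKM sums made equal the split was 28 positive and 120 negative and the median difference of all genes moved from 0.04 to −0.10, and with scaling by the median ratio it was 17 and 55. At a pseudocount of 0.1 only 11 of the 25 positive and 28 of the 45 negative genes kept their call. Those that did not include Myb, Spn, Flt3, Treml2, Pstpip1, Ltb, Mycn, Neurl3, Tbca, Nsa2, Lsm5, Pde3a, Agr2, Hey2, Fbn2, Lamb3, Sema3g and Ace. After quantile normalization 18 and 42 kept it, and the calls of Ltb, Mycn, Pglyrp2, Ptma, Thoc7, Cdkn1c, Nsa2, Sema3g, Ace and Sost ended. No one of the 70 genes changed sign under any alternative, and 21 passed under every alternative in which they were tested, 3 positive and 18 negative.

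**Figure D2:**
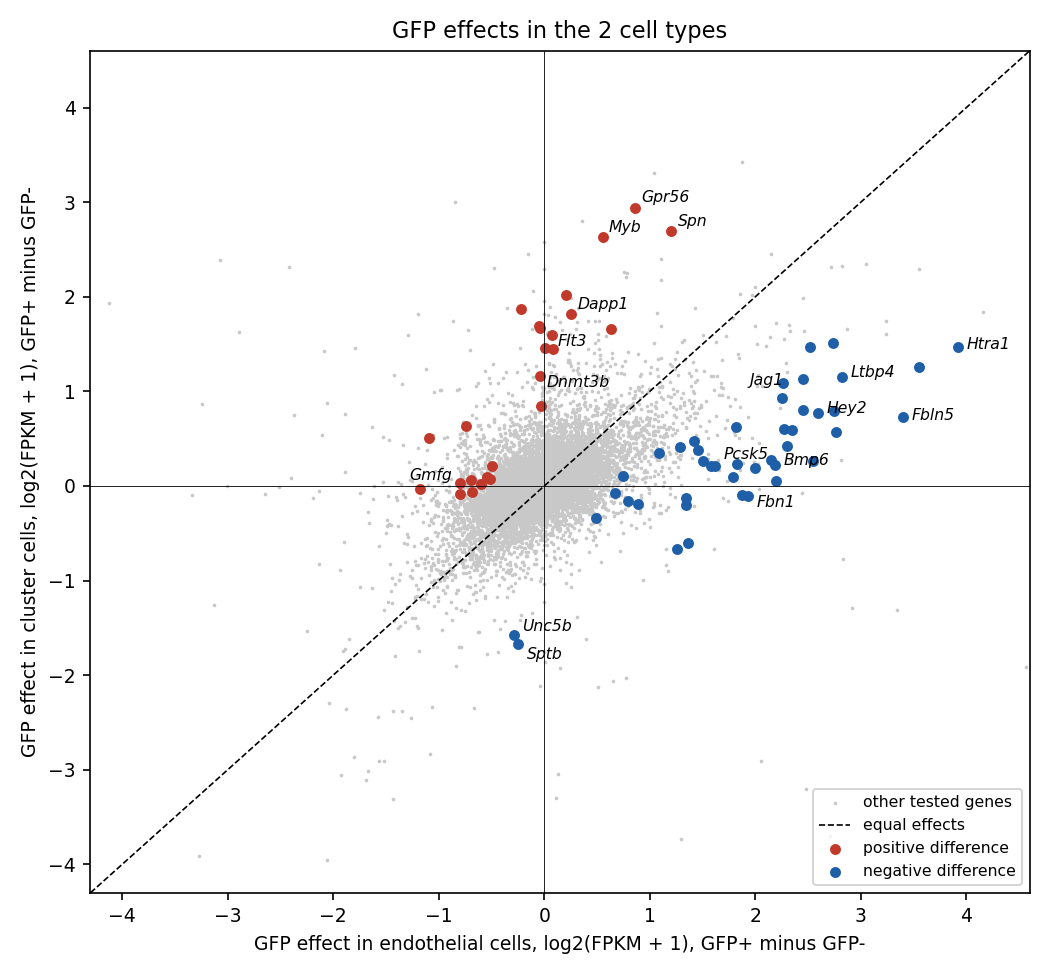
GFP effect in EC (x axis) against the GFP effect in HC (y axis), both as log2(FPKM + 1) of GFP+ minus GFP−, with 1 point per tested gene and the dashed line marking equal effects. Red points are the 25 genes with a positive difference and blue points those with a negative one, which lie above and below the line. The axes leave out 8 genes, among them Gm22027, a called gene.

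Apart from AI662270, a sequence with no full gene name, the adhesion receptor gene Gpr56 and the blood transcription factor gene Myb had the largest positive differences. Gpr56, now named Adgrg1, encodes a receptor of the adhesion class found on blood stem cells and endothelium, and its level was 53.5, 77.4 and 60.3 FPKM in GFP+ HC, 6.57, 8.74 and 6.9 in GFP− HC, 9.8, 13.6 and 11.3 in GFP+ EC and 5.43, 4.82 and 7.75 in GFP− EC. The GFP+ HC stood well above all other libraries, and the GFP+ EC above the GFP− EC. The rise was 8.62-fold in HC and 1.93-fold in EC (effects 2.94 ± 0.19 and 0.86 ± 0.19), a difference of 2.08 ± 0.26, adjusted p = 0.00638. Myb, which is needed for definitive blood formation, was at 16.9, 22.1 and 14.6 FPKM in GFP+ HC, 1.99, 1.96 and 2.05 in GFP− HC, 0.513, 1.34 and 0.72 in GFP+ EC and 0.37, 0.337 and 0.0532 in GFP− EC. All 3 GFP+ HC libraries were above 14 FPKM and no other library reached 3. GFP+ libraries were above GFP− libraries without overlap in both cell types, by 8.90-fold in HC and 3.39-fold in EC. The effect of 2.63 ± 0.20 in HC passed and that of 0.55 ± 0.20 in EC, where both groups averaged under 1 FPKM, did not (difference 2.08 ± 0.28, adjusted p = 0.00987). The call of Myb ended at a pseudocount of 0.1 (1.56, limma, adjusted p = 0.380) and under the stricter filter of a mean FPKM of 5 or more (2.08, adjusted p = 0.0729).

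Fbln5 and Htra1 had the largest negative differences apart from Gm22027. Fbln5 encodes fibulin-5, which helps to assemble elastic fibres, and its level was 2.72, 2.78 and 4.9 FPKM in GFP+ HC, 1.95, 1.14 and 1.91 in GFP− HC, 29.4, 24.8 and 38.6 in GFP+ EC and 1.87, 1.38 and 2.87 in GFP− EC. The GFP+ EC stood apart from the other 9 libraries, all of which were under 5 FPKM. GFP+ EC exceeded GFP− EC 15.1-fold (3.40 ± 0.25), and the ratio was 2.08-fold in HC, where the effect of 0.73 ± 0.25 did not pass (difference −2.67 ± 0.35, adjusted p = 0.00782). Htra1, a secreted serine protease that cuts matrix proteins, was at 11.2, 8.51 and 13 FPKM in GFP+ HC, 3.42, 2.75 and 3.54 in GFP− HC, 86.6, 102 and 102 in GFP+ EC and 6.46, 3.71 and 6.62 in GFP− EC. Here GFP+ libraries were above GFP− libraries in both cell types without overlap. The rise was 17.3-fold in EC and 3.36-fold in HC (effects 3.92 ± 0.19 and 1.47 ± 0.19, difference −2.45 ± 0.27, adjusted p = 0.00399).

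The promoters of these 4 genes are given because they stand at the ends of the ranking, 2 at each end. The windows run from 250 bases before to 50 after the start site, 5′ to 3′ on the gene's strand, in RefSeq on GRCm38.p6, a later build than the mm9 of the deposited values, and are the first entry of each gene. They are chr8:94976859-94977158 (plus strand) for Gpr56, chr10:21160935-21161234 (minus) for Myb, chr12:101819070-101819369 (minus) for Fbln5 and chr7:130935953-130936252 (plus) for Htra1. Capitals mark matches, on either strand, to a set of short motifs. These were the RUNX core motif TGTGGT, the GATA factor motif AGATAA with its second form TGATAA, the ETS family motif CCGGAA with its second form AGGAAG, the AP-1 factor motif TGACTCA, the E-box motif CACGTG, and the KLF and SP family motif CCGCCC.
Gpr56: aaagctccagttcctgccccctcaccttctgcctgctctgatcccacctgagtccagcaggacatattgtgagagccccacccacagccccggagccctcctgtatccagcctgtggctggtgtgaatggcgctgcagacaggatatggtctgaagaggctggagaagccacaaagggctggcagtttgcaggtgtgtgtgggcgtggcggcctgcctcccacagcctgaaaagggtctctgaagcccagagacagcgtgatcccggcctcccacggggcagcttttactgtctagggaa
Myb: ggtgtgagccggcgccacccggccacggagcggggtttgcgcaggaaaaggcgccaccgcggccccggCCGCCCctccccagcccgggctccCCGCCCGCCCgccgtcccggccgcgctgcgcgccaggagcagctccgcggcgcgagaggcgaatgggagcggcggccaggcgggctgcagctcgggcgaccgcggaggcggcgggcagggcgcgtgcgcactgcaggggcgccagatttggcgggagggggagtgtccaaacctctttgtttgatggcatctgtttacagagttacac
Fbln5: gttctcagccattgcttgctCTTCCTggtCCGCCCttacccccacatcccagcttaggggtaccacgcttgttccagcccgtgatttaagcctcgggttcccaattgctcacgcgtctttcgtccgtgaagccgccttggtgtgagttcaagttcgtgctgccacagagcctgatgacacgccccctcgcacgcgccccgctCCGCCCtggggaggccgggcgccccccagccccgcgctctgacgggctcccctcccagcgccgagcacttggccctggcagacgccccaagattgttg
Htra1: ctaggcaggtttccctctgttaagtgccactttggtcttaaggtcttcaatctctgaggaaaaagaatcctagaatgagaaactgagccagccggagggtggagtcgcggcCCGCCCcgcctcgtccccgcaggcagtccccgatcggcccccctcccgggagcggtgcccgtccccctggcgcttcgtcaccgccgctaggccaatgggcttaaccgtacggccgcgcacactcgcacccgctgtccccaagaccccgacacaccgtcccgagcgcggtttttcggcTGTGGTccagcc
The Gpr56 window held none of these letters. Myb held CCGCCC at positions −182, −158 and −154 from the start site, of which the last pair overlap. Fbln5 held AGGAAG on the reverse strand at −230 and CCGCCC at −221 and −48, and Htra1 held CCGCCC at −139 and TGTGGT at 39.

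Over the genes with a RefSeq entry, 18 of the 25 positive and 32 of the 45 negative, CCGCCC was in 55.6% of the positive and 71.9% of the negative promoters, against 65.4% of the 10080 tested genes with an entry and 35.9% of all 27025 promoters. The ETS letters CCGGAA were in 27.8% and 9.38%, against 28.3% and 15.2%. AGGAAG was in 33.3% and 34.4%, against 33.0% and 35.1%, and TGTGGT in 11.1% and 3.12%, against 11.9% and 16.9%. The median GC content was 58.3% and 64.7%, against 61.0% and 52.7%. AGATAA was in 3 positive and 1 negative promoter (16.7% and 3.12%), against 6.34% of tested genes with an entry and 11.4% of all promoters. TGATAA was in 0 and 2 (6.25% of the negative), against 3.98% and 9.26%. CACGTG was in 1 and 2 (5.56% and 6.25%), against 10.3% and 7.24%. TGACTCA was in none of either, against 3.24% and 5.17%. Over so few promoters these shares are a description only.

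Several other genes of the leukocyte surface and of signalling in blood cells had a GFP effect in HC that was not called or smaller in EC. Spn encodes the sialophorin CD43, an early mark of blood commitment, and stood at 9.08, 11.5 and 9.01 FPKM in GFP+ HC, 0.667, 0.772 and 0.58 in GFP− HC, 1.93, 2.37 and 1.52 in GFP+ EC and 0.255, 0.25 and 0.294 in GFP− EC. Both GFP+ groups were above their GFP− groups, by 14.7-fold in HC and 7.28-fold in EC, with effects of 2.69 ± 0.15 and 1.20 ± 0.15 (difference 1.49 ± 0.22, adjusted p = 0.0134). The cytokine receptor gene Flt3, active in early lymphoid and myeloid progenitors, was at 2.68, 3.7 and 3.1 FPKM in GFP+ HC, 0.254, 0.435 and 0.414 in GFP− HC, 0.0943, 0.0635 and 0.128 in GFP+ EC and 0.0344, 0.076 and 0.0203 in GFP− EC. The GFP+ HC exceeded the GFP− HC 8.6-fold, while the EC libraries were all under 0.2 FPKM and overlapped (difference 1.53 ± 0.23, adjusted p = 0.0152). The call of Spn ended without HC GFP+ replicate 2 (1.38), and that of Flt3 without the first GFP− HC replicate (1.47) or the first GFP+ EC replicate (1.53).

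Intracellular signalling genes followed. Tbc1d10c, which encodes a GTPase-activating protein that restrains lymphocyte activation, was at 5.6, 7.24 and 5.23 FPKM in GFP+ HC, 1.52, 1.75 and 1.4 in GFP− HC, 1.62, 1.71 and 1.51 in GFP+ EC and 1.41, 1.55 and 1.45 in GFP− EC. Only the GFP+ HC were above 2 FPKM, and the other 9 libraries lay close together. The rise of 3.86-fold in HC was not matched by a call in EC (effects 1.45 ± 0.14 and 0.08 ± 0.14, difference 1.37 ± 0.20, adjusted p = 0.0127), and this call held under all alternatives in which the gene was tested. Dapp1, an adaptor that binds membrane phosphoinositides, was at 19.4, 18.3 and 18.9 FPKM in GFP+ HC, 4.88, 3.46 and 5.84 in GFP− HC, 4.27, 3.72 and 5.22 in GFP+ EC and 3.66, 2.79 and 4.18 in GFP− EC. Again the GFP+ HC stood apart from the other libraries (effects 1.81 ± 0.17 and 0.25 ± 0.17, difference 1.56 ± 0.24, adjusted p = 0.0181). Treml2, an immune receptor of the TREM family, rose by 1.67 ± 0.19 in HC (difference 1.71 ± 0.27, adjusted p = 0.0185), and Pstpip1, an adaptor of the actin cytoskeleton in blood cells, by 1.69 ± 0.22 (difference 1.74 ± 0.31, adjusted p = 0.0387). In EC both averaged under 1 FPKM with effects of −0.04 ± 0.19 and −0.05 ± 0.22. The calls of Dapp1 ended when any 1 of 6 libraries was absent, namely replicates 1 and 2 of GFP+ HC, 1 of GFP− HC, 1 and 2 of GFP+ EC and 1 of GFP− EC (1.47 to 1.59), those of Treml2 and Pstpip1 without 6 and 11 of the 12 libraries.

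The chromatin and growth regulators Dnmt3b and Mycn were expressed in all 4 populations and their GFP effect passed in HC alone. Dnmt3b, an enzyme that sets new DNA methylation, was at 23.2, 30.5 and 25.9 FPKM in GFP+ HC, 10.4, 12.9 and 10.5 in GFP− HC, 12, 8.82 and 9.71 in GFP+ EC and 10.7, 10.5 and 9.94 in GFP− EC. The GFP+ HC were 2.35-fold above the GFP− HC, and in EC the ranges overlapped (effects 1.16 ± 0.13 and −0.04 ± 0.13, difference 1.20 ± 0.19, adjusted p = 0.0181). Mycn, a transcription factor of the Myc family, was at 35.9, 43.6 and 36.7 FPKM in GFP+ HC, 18.7, 25.6 and 19.5 in GFP− HC, 21.5, 20.7 and 23.2 in GFP+ EC and 21.5, 23.3 and 22.2 in GFP− EC. Its effect was 0.84 ± 0.12 in HC and −0.04 ± 0.12 in EC (difference 0.88 ± 0.17, adjusted p = 0.0476). The call of Dnmt3b ended when replicate 2 of GFP+ HC, 1 or 3 of GFP− HC, 2 or 3 of GFP+ EC or 1 of GFP− EC was absent (1.10 to 1.17), and Mycn lost its call in 19 of 22 alternatives. Gpr171, Pglyrp2 and AI662270 complete the 11 genes called in HC alone, and Neurl3 (1.03), at 11.1, 12.4 and 12.3 FPKM in GFP+ EC against 7.89, 7.36 and 6.85 in GFP− EC and at 24.4, 32.9 and 36.7 against 8.61, 9.94 and 8.84 in HC, was the remaining gene higher in both.

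**Figure D3:**
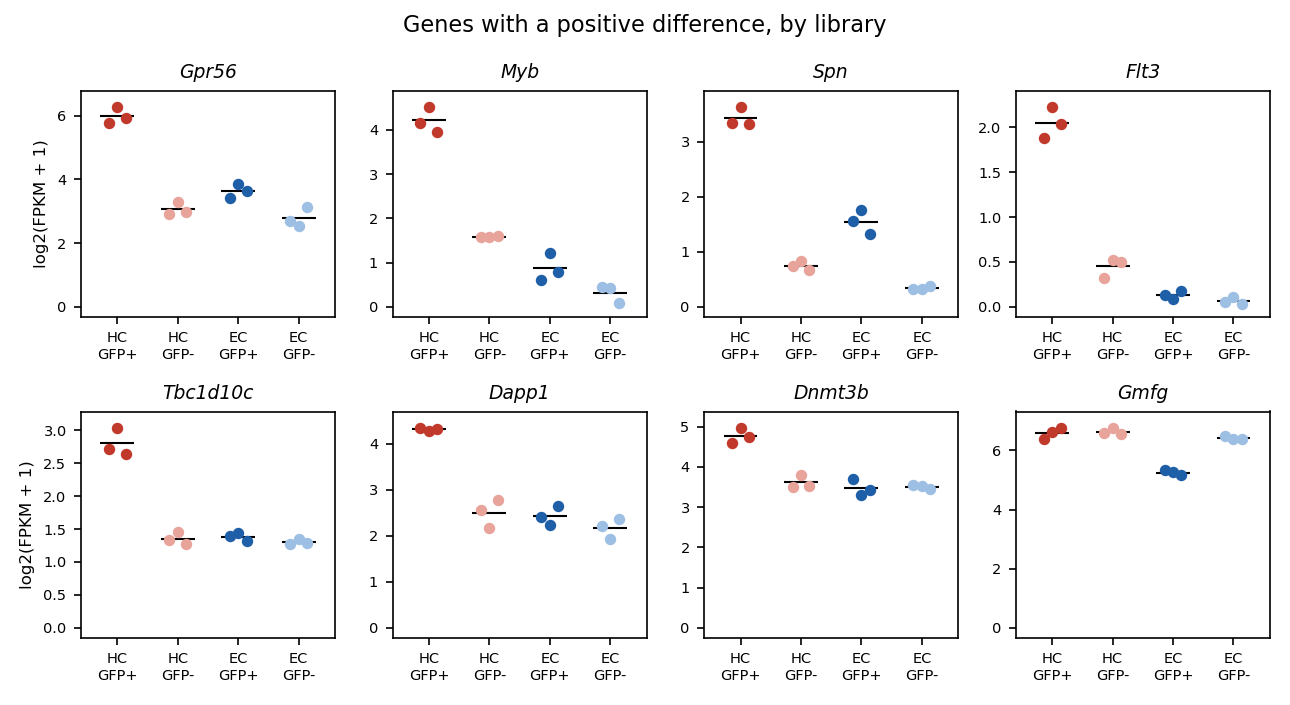
Log2(FPKM + 1) of 8 genes with a positive difference in each library, with a line at the mean of the 3 libraries of a population. GFP+ HC stand above the other 9 libraries in 7 of the panels, and in Gmfg the GFP+ EC stand below them.

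In Gmfg and 10 further positive genes the effect that passed was a lower level in GFP+ EC, while no HC effect did. Gmfg, which loosens branched actin in blood and endothelial cells, was at 83.1, 98.7 and 109 FPKM in GFP+ HC, 95.9, 107 and 93.1 in GFP− HC, 39.5, 37.2 and 34.8 in GFP+ EC and 88.5, 83.6 and 83.5 in GFP− EC. Levels in GFP+ EC lay at 0.436 times those in GFP− EC, below all other libraries, and did not differ in HC beyond the spread (effects −1.18 ± 0.10 and −0.03 ± 0.10, difference 1.15 ± 0.14, adjusted p = 0.00558). The call of Gmfg held under all alternatives. Ltb, the membrane anchor subunit of lymphotoxin, was at 6.23, 8.53 and 7.69 FPKM in GFP+ HC, 3.47, 5.58 and 4.39 in GFP− HC, 1.58, 2.1 and 1.7 in GFP+ EC and 3.22, 3.16 and 4.74 in GFP− EC. It fell in GFP+ EC (−0.74 ± 0.18) and its effect of 0.64 ± 0.18 in HC did not pass (difference 1.38 ± 0.26, adjusted p = 0.0476), a call lost without any 1 of 11 libraries. The other genes were Cdkn1c, an inhibitor of cell cycle kinases (difference 0.70), Ptma (0.59), Thoc7 (0.62), Tbca (0.63), Frg1 (0.63), Nsa2 (0.71), Nol7 (0.76), Lsm5 (0.83) and Gm10357 (1.59), named here to complete the count and not by size. The HC effects of Ltb, Gm10357 (0.51) and Cdkn1c (0.21) had no overlap between GFP+ and GFP− libraries, with GFP+ above, and did not pass. Once FPKM sums were made equal, Ptma (0.43), Thoc7 (0.46), Frg1 (0.47), Cdkn1c (0.55), Nsa2 (0.55) and Nol7 (0.60) kept a positive difference without passing. FPKM sums and mitochondrial shares were highest in GFP− EC, and apart from this scaling of the sums their part in these values was not tested.

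By lists, the median differences of blood regulators and leukocyte genes lay above that of all genes, with few single calls. Some members averaged under 1 FPKM in both EC groups, where log2(FPKM + 1) understates a GFP effect. For example, Ptprc had a difference of 0.43 but ratios of 1.87-fold in HC and 5.14-fold in EC. These medians therefore do not compare folds between the cell types, and the part of low EC levels in them was not tested. Of 29 tested regulators of the endothelial-to-hematopoietic transition and of blood stem cells, Myb and Mycn were positive (0.188% of all tested genes were) and none negative, and the median difference was 0.24 against 0.04 over all genes. In HC 13 of them rose, against 2.98% of all tested genes, and in EC 6, against 6.96%, and none was called lower in either. Gfi1, a repressor that silences endothelial genes in this transition, was at 11.3, 24.2 and 13.8 FPKM in GFP+ HC, 0.315, 0.901 and 0.481 in GFP− HC, 1.87, 4.69 and 2.3 in GFP+ EC and 0.0887, 0 and 0 in GFP− EC. Both cell types had more of it when GFP+ (effects 3.42 ± 0.30 and 1.88 ± 0.30), and the difference of 1.55 ± 0.42, adjusted p = 0.148 did not pass. The mean was 0.57 FPKM in GFP− HC and 0.03 in GFP− EC, close to the floor of the log scale. The larger effect in HC therefore does not mean a larger fold there. Runx1 (1.18, adjusted p = 0.245) did not pass either, and Sox17, an arterial transcription factor, had the smallest p in the other direction (−1.11, adjusted p = 0.143).

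Of 31 tested genes of the leukocyte surface, Spn, Gpr56 and Flt3 were positive, against 0.188% of all tested genes. None was negative, against 0.339%, and the median was 0.44. Cd34, with the smallest p in the other direction, had a difference of −0.28 (adjusted p = 0.652). Among 27 signalling and cytoskeleton genes of leukocytes Gmfg alone was called, with a median of 0.53 and 24 of 27 above 0, against 7371 of 13278 over all genes. Of 26 genes of NF-kB and inflammation Ltb was called (median 0.37). Interferon response genes had a median of 0.39 and megakaryocyte genes of 0.45, with limma calling 0 of 28 and 0 of 21. At an unadjusted p under 0.05, 1 interferon response gene was positive, and 2 megakaryocyte genes were positive and 1 negative. Among all 13278 tested genes 830 were positive and 696 negative at that level. Macrophage genes had a median of 0.10 and 0 of 21 called, with 1 negative and none positive at an unadjusted p under 0.05. Macrophage marker sums in the HC ran from 203 to 1267, and their part in these values was not tested.

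Of 21 tested elastic fibre genes 4 had a negative difference past the threshold, against 0.339% of all tested genes. Fbn1, which encodes fibrillin-1, the main protein of the microfibrils on which elastin is laid down, was at 11.1, 10.5 and 9.47 FPKM in GFP+ HC, 12.5, 8.46 and 13 in GFP− HC, 36.4, 33.6 and 37 in GFP+ EC and 9.04, 7.91 and 8.88 in GFP− EC. The ranges overlapped in HC, and in EC the GFP+ level was 4.14-fold higher (effects 1.93 ± 0.14 and −0.10 ± 0.14, difference −2.03 ± 0.20, adjusted p = 0.00205). Ltbp4, which tethers latent TGF-beta and guides elastic fibre assembly, was at 17.9, 22 and 23.4 FPKM in GFP+ HC, 7.6, 9.35 and 9.93 in GFP− HC, 125, 142 and 140.4 in GFP+ EC and 21.9, 20.1 and 14 in GFP− EC. GFP+ libraries were higher in both cell types, by 7.29-fold in EC and 2.36-fold in HC (difference −1.67 ± 0.23, adjusted p = 0.00987). Fbn2, the fibrillin of early development, was at 25.2, 21.8 and 18 FPKM in GFP+ HC, 25.7, 20.4 and 26.7 in GFP− HC, 30.4, 30.8 and 31.6 in GFP+ EC and 17.6, 16.6 and 18.1 in GFP− EC, higher in GFP+ EC and overlapping in HC (difference −0.95 ± 0.18, adjusted p = 0.0425), a call lost without any 1 of 10 libraries.

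With Fbln5, these 4 were all negative, none of the 21 was positive, and the list median was −0.69, with 19 of 21 below 0 and 13 negative at an unadjusted p under 0.05. Over all tested genes 5907 of 13278 were below 0, and 696 were negative at that level. Elastin itself, Eln, was at 33.1, 30.5 and 51.5 FPKM in GFP+ HC, 10.8, 5.54 and 15.1 in GFP− HC, 272, 211 and 359.5 in GFP+ EC and 14.9, 11.5 and 17.6 in GFP− EC. GFP+ libraries exceeded GFP− libraries in both cell types (effects 4.16 ± 0.32 in EC and 1.83 ± 0.32 in HC), and its difference of −2.32 just missed the threshold (adjusted p = 0.054). The member with the smallest p in the other direction was Loxl3, a lysyl oxidase (0.53, adjusted p = 0.551). Mesenchyme marker sums of GFP+ EC (227 to 436) overlapped those of GFP− EC (238 to 1023), and their part in these values was not tested. Fbln5, Fbn1, Ltbp4 and Fbn2 were each higher in all GFP+ EC libraries than in any GFP− EC library, as were 14.8% of all tested genes. This order follows from the values that chose these genes and is given as a description. In bulk RNA, fewer expressing cells and less RNA per cell cannot be told apart, here and in all the other genes.

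Basement membrane genes had a median of −0.46, with 26 of 27 below 0, against 5907 of 13278 over all genes. At an unadjusted p under 0.05, 10 were negative, against 696 of 13278. Lama3 was called negative, against 0.339% of all tested genes. Lama3, a laminin alpha chain, was at 1.49, 1.77 and 2.13 FPKM in GFP+ HC, 0.715, 0.353 and 0.787 in GFP− HC, 9.48, 8.89 and 10.4 in GFP+ EC and 0.669, 0.494 and 0.567 in GFP− EC. The level was 16.6-fold higher in GFP+ EC and 2.91-fold higher in GFP+ HC (effects 2.75 ± 0.15 and 0.79 ± 0.15, difference −1.95 ± 0.22, adjusted p = 0.00399). Lamc3, a laminin gamma chain outside that list, was at 1.43, 0.806 and 1.39 FPKM in GFP+ HC, 0.536, 0.363 and 0.52 in GFP− HC, 11.5, 10.3 and 12.2 in GFP+ EC and 1.04, 0.582 and 0.847 in GFP− EC, and GFP+ EC alone were above 2 FPKM (difference −2.19 ± 0.23, adjusted p = 0.00319). Lamb3 (−1.87, adjusted p = 0.0111), a laminin beta chain also outside that list, was under 1 FPKM in all HC libraries. The collagen gene Col13a1, the 1 member of the list above 0, rose in GFP+ HC and in GFP+ EC (effects 0.997 in HC and 0.92 in EC, difference 0.07, adjusted p = 0.944).

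Of 33 matricellular proteins, proteoglycans and proteases 4 were negative, namely Htra1, Mmp2, Fn1 and Fstl1, against 0.339% of all tested genes. None was positive, and the median was −0.24. Below 0 were 23 of the 33, against 5907 of 13278 over all genes. At an unadjusted p under 0.05, 10 were negative and 1 positive, against 696 and 830. Mmp2, a gelatinase, was at 106, 111 and 110.5 FPKM in GFP+ HC, 83.2, 80.5 and 81.3 in GFP− HC, 179, 187 and 191 in GFP+ EC and 81.2, 73.3 and 73 in GFP− EC. Its replicates lay close together, so a rise of 2.45-fold in EC against 1.34-fold in HC passed with a difference of −0.87 ± 0.09, adjusted p = 0.00236. Fn1, which encodes fibronectin, was at 159.8, 140.5 and 137 FPKM in GFP+ HC, 145, 94.9 and 143 in GFP− HC, 361, 351 and 397 in GFP+ EC and 132, 111 and 117 in GFP− EC, and the GFP+ EC were above all other libraries (difference −1.41 ± 0.21, adjusted p = 0.0147, call lost without HC GFP+ replicate 2, at −1.38, or EC GFP+ replicate 3, at −1.36). Fstl1, a secreted follistatin-like protein, had a difference of −0.74 ± 0.11, adjusted p = 0.0167, lost without any 1 of 4 libraries. Spock2, a proteoglycan gene, had the smallest p in the other direction (0.89, adjusted p = 0.257).

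**Figure D4:**
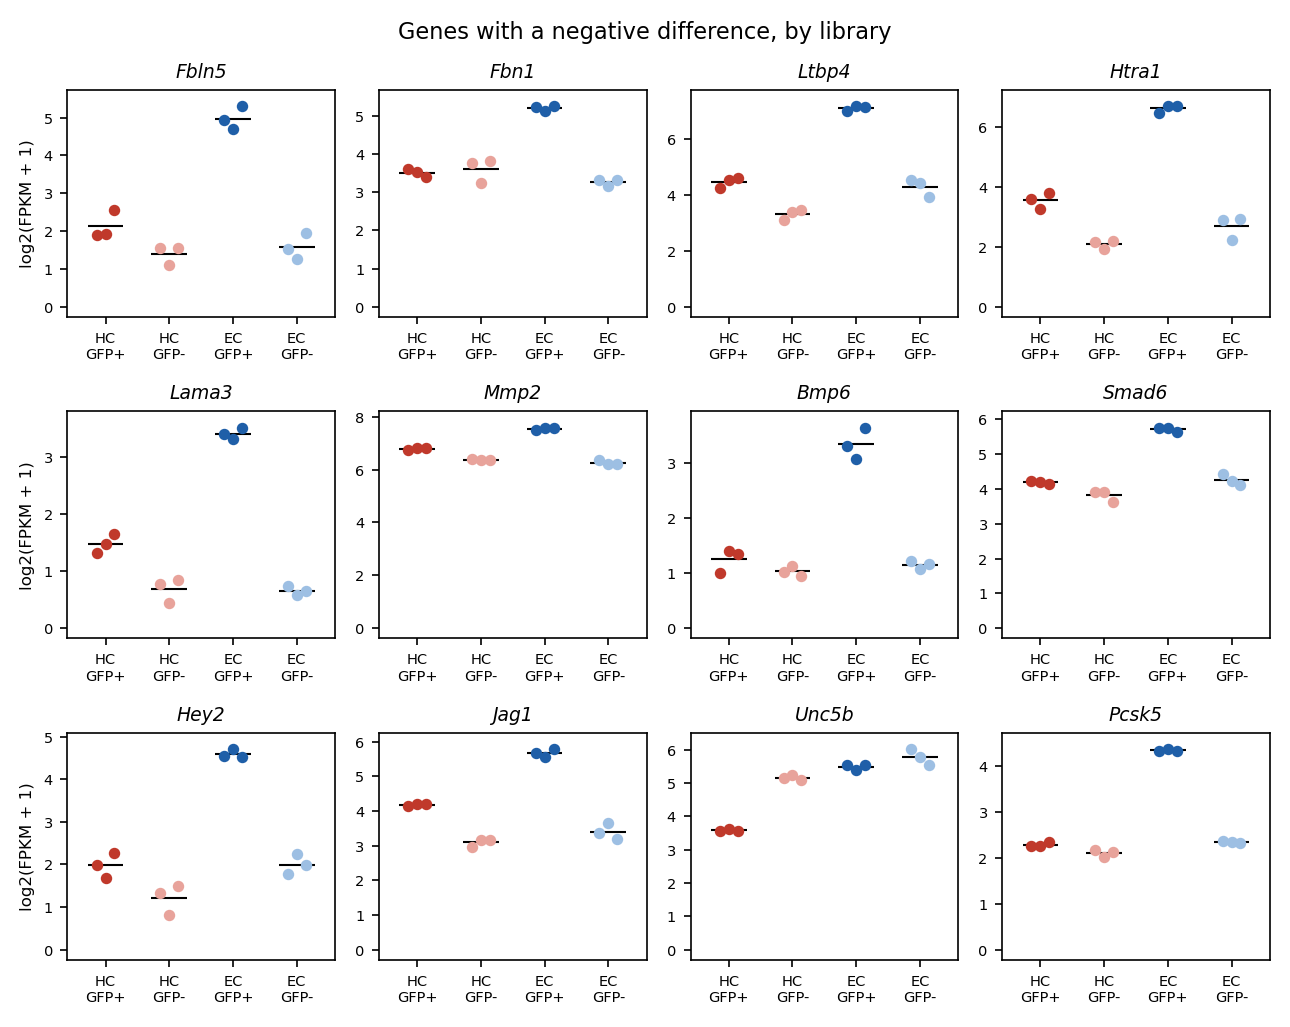
Log2(FPKM + 1) of 12 genes with a negative difference in each library, with a line at the mean of the 3 libraries of a population. In 11 panels the 3 GFP+ EC libraries are above the other 9, and in Unc5b the 3 GFP+ HC libraries are below the other 9.

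Notch and arterial genes had a median difference of −0.52, with 26 of 30 below 0, against 5907 of 13278 over all genes. At an unadjusted p under 0.05, 17 were negative, against 696 of 13278. Past the threshold 3 were negative, against 0.339% of all tested genes, and none was positive. Jag1, a Notch ligand, was at 16.8, 17.3 and 17.4 FPKM in GFP+ HC, 6.74, 8.04 and 7.98 in GFP− HC, 49.8, 46.4 and 54.4 in GFP+ EC and 9.28, 11.7 and 8.22 in GFP− EC. GFP+ exceeded GFP− in both cell types without overlap, by 5.16-fold in EC and 2.26-fold in HC (difference −1.18 ± 0.17, adjusted p = 0.0125). Hey2, a transcriptional target of Notch in arteries, was at 2.96, 2.23 and 3.82 FPKM in GFP+ HC, 1.52, 0.762 and 1.8 in GFP− HC, 22.1, 25.1 and 22.1 in GFP+ EC and 2.4, 3.71 and 2.96 in GFP− EC. The GFP+ EC stood apart, and the HC effect of 0.77 ± 0.20 did not pass (difference −1.82 ± 0.29, adjusted p = 0.0181). The call of Hey2 was lost without any 1 of 8 libraries, which were all except replicate 3 of GFP+ HC, 2 of GFP− HC and 2 and 3 of GFP− EC. Unc5b, a netrin receptor of arteries and sprouting vessel tips, was at 10.9, 11.2 and 10.9 FPKM in GFP+ HC, 34.5, 36.9 and 32.7 in GFP− HC, 45.4, 40.9 and 45.5 in GFP+ EC and 63.7, 53.6 and 45.7 in GFP− EC. It fell in GFP+ HC to 0.316 times the GFP− level (−1.57 ± 0.11), and in EC its effect of −0.29 ± 0.11 did not pass (difference −1.28 ± 0.15, adjusted p = 0.00549). Mecom, with the smallest p in the other direction, had a difference of 0.24 (adjusted p = 0.611).

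Other endothelial lists lay below 0 with no call. Venous and lymphatic genes had a median of −0.55 with limma calling 0 of 13, and 6 negative at an unadjusted p under 0.05. Pan-endothelial genes had −0.30 with 0 of 29 called and 10 negative at that level, and genes of hemostasis and the shear response −0.22 with 0 of 24 called, 9 negative and 2 positive. Over all 13278 tested genes, 696 were negative and 830 positive at that level. The median effects of the pan-endothelial genes were 0.16 in HC and 0.37 in EC. Endothelial marker sums were 1583 to 1789 in GFP+ HC, 1216 to 1658 in GFP− HC, 2334 to 2448 in GFP+ EC and 1458 to 1838 in GFP− EC, and their part in the matrix and arterial differences was not tested.

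Of 30 genes of TGF-beta and BMP signalling 2 were negative, against 0.339% of all tested genes. None was positive, and the median was −0.26. Below 0 were 23 of the 30, against 5907 of 13278 over all genes, and 8 were negative at an unadjusted p under 0.05, against 696. Bmp6, a secreted ligand made by endothelium, was at 0.996, 1.65 and 1.55 FPKM in GFP+ HC, 1.02, 1.19 and 0.929 in GFP− HC, 8.91, 7.38 and 11.4 in GFP+ EC and 1.32, 1.1 and 1.24 in GFP− EC. The GFP+ EC were 7.58-fold above the GFP− EC and the HC ranges overlapped (effects 2.19 ± 0.17 and 0.22 ± 0.17, difference −1.97 ± 0.24, adjusted p = 0.00575). Smad6, an inhibitor of BMP signals inside the cell, was at 17.7, 17.5 and 16.9 FPKM in GFP+ HC, 14.2, 14.2 and 11.3 in GFP− HC, 52.6, 53.5 and 48.9 in GFP+ EC and 20.8, 17.8 and 16.2 in GFP− EC. It rose 2.83-fold in GFP+ EC, and its effect of 0.38 ± 0.11 in HC did not pass (difference −1.08 ± 0.15, adjusted p = 0.0118). The BMP target gene Id2, with the smallest p in the other direction, differed by 0.11 (adjusted p = 0.848).

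Of 27 axon guidance genes, Unc5b and Sema3g were negative, against 0.339% of all tested genes (median −0.41). Below 0 were 23 of the 27, against 5907 of 13278 over all genes, and 13 were negative at an unadjusted p under 0.05, against 696. Sema3g, a secreted semaphorin of arteries, was at 6.93, 8.63 and 8.62 FPKM in GFP+ HC, 5.45, 8.53 and 5.87 in GFP− HC, 55.1, 57.9 and 60.6 in GFP+ EC and 21.4, 22.5 and 15.9 in GFP− EC, with GFP+ EC above all other libraries (difference −1.24 ± 0.23, adjusted p = 0.0476, call lost without any 1 of 11 libraries). Ntn1, the ligand netrin-1, had the smallest p in the other direction (0.40, adjusted p = 0.752).

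Among the other negative genes, Pi16, a peptidase inhibitor, was at 6.81, 6.1 and 11.5 FPKM in GFP+ HC, 2.25, 3.17 and 2.74 in GFP− HC, 40.9, 40.4 and 46.2 in GFP+ EC and 2.92, 2.22 and 3.05 in GFP− EC. It rose 15.5-fold in GFP+ EC and 2.99-fold in GFP+ HC (difference −2.29 ± 0.28, adjusted p = 0.00558). Pde3a, which breaks down cyclic nucleotides, was at 2.85, 2.43 and 3.14 FPKM in GFP+ HC, 3.6, 0.927 and 2.59 in GFP− HC, 17.9, 13 and 15.1 in GFP+ EC and 1.84, 1.87 and 1.63 in GFP− EC, with GFP+ EC apart from the rest (difference −2.29 ± 0.37, adjusted p = 0.0203, call lost without any 1 of 6 libraries). Ace, the angiotensin-converting enzyme, was at 1.36, 1.8 and 2.42 FPKM in GFP+ HC, 0.472, 0.908 and 0.511 in GFP− HC, 12.1, 15 and 13 in GFP+ EC and 1.52, 2.04 and 1.35 in GFP− EC, above GFP− levels in both cell types when GFP+ (difference −1.64 ± 0.25, adjusted p = 0.018, call lost when replicate 2 of GFP+ HC, 2 or 3 of GFP+ EC or 1 of GFP− EC was absent, at −1.56 to −1.66). Agr2, a disulfide isomerase of the secretory pathway, had a difference of −2.14 ± 0.37, adjusted p = 0.0308, and the apolipoprotein L gene Apol7d one of −1.96 ± 0.31, adjusted p = 0.0181. These calls were lost without any 1 of 9 and 5 libraries.

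Pcsk5, a convertase that cuts secreted proproteins, was chosen after its values were seen, as the gene with the smallest adjusted p next to Gm22027. It was at 3.83, 3.81 and 4.06 FPKM in GFP+ HC, 3.5, 3.07 and 3.37 in GFP− HC, 19, 19.7 and 19.2 in GFP+ EC and 4.18, 4.06 and 4 in GFP− EC. The 3 replicates of each population lay within a narrow range, and the GFP+ EC were 4.74-fold above the GFP− EC with an HC effect of 0.19 ± 0.09 (difference −1.81 ± 0.13, adjusted p = 0.000121). Gm22027, a gene model with no other name, was listed at 0 in the 9 libraries outside GFP− HC and at 24.3, 24.7 and 25.2 FPKM there, for which no fold is given. The remaining negative genes with an effect in EC alone were Plek2, Art3, Cyp4b1, P4ha3, Olfml2a, Wfdc1, Rhpn2, Cyp26a1, Arhgap44, Sost, Igsf3, Erbb2, Pdia5 and Azin1. Those that rose with GFP in both were Syt15, Synpo, Dhh, Ctsw, Ctsh and St6gal1. They are named to complete the counts.

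**Figure D5:**
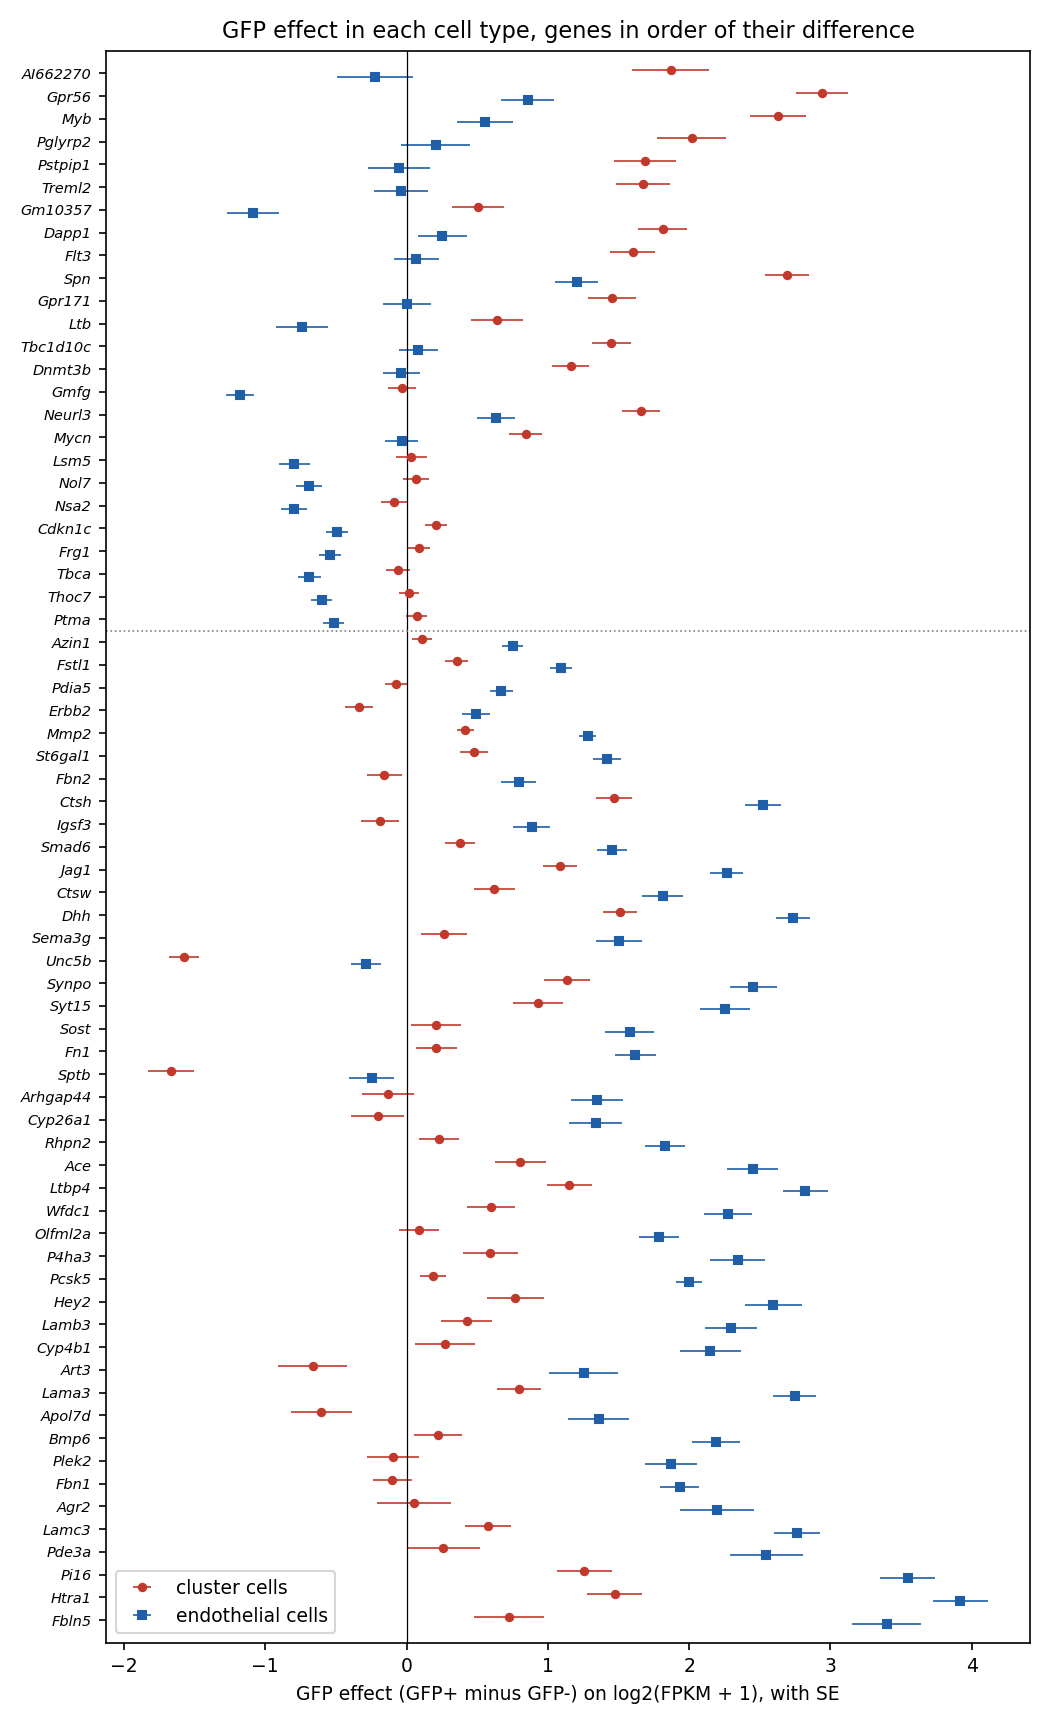
GFP effect (GFP+ minus GFP−, log2(FPKM + 1)) with its SE in HC (red circles) and EC (blue squares) for 69 of the 70 genes, in order of their difference, with Gm22027 left out. Above the dotted line are the 25 genes with a positive difference, below it the negative ones, in which all EC effects except those of Unc5b and Sptb are above 0.

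Erythroid genes were lower in GFP+ cells of both types, with 20 of 27 tested genes falling and 2 rising in HC, against 1.28% and 2.98% of all tested genes. In EC 13 fell and 1 rose, against 6.51% and 6.96%. The median effect was −1.42 in HC and −0.67 in EC and the median difference −0.91. Of the 27 differences 26 were below 0, against 5907 of 13278 over all genes. At an unadjusted p under 0.05, 14 were negative and 1 positive, against 696 and 830 of 13278. Past the threshold 1 member was negative, against 0.339% of all tested genes. Sptb, the beta spectrin of the red cell membrane skeleton, was at 0.525, 0.597 and 0.509 FPKM in GFP+ HC, 4.74, 4.06 and 3.06 in GFP− HC, 0.995, 1.38 and 1.19 in GFP+ EC and 1.83, 1.48 and 1.46 in GFP− EC. It fell in GFP+ HC (−1.67 ± 0.16), while the EC effect of −0.25 ± 0.16 did not pass (difference −1.42 ± 0.23, adjusted p = 0.0193), and the call was lost without any 1 of 7 libraries. Nfe2, a transcription factor of megakaryocytes and red cells, had the smallest p in the other direction (1.60, adjusted p = 0.161). The sum of 8 erythroid markers, 1 of which is Slc4a1 (difference −1.75, adjusted p = 0.128), was lower in GFP+ than in GFP− libraries of both types without overlap, and the part of red cell RNA in these values was not tested.

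No gene was called in the remaining lists. Among all 13278 tested genes 7371 differences were above 0, and 830 were positive and 696 negative at an unadjusted p under 0.05 by limma. Granulocyte and monocyte genes had a median of 0.43 with 15 of 17 above 0, limma calling 0 of 17 and 3 positive at an unadjusted p under 0.05. S phase genes had a median difference of 0.14 and G2 and M phase genes of 0.06, with limma calling 0 of 21 and 0 of 22, and 2 and 1 positive and 0 and 2 negative at an unadjusted p under 0.05. Genes of dissociation stress had 0.06 (0 of 25 called, 1 positive and 2 negative at that level), Hox genes −0.04 (0 of 31, 3 negative) and genes of the Wnt pathway and retinoic acid −0.09 (0 of 34, 5 negative). Antigen presentation genes had 0.19 (0 of 12, 1 positive). Smooth muscle and mesenchyme genes had −0.05 (0 of 21, 1 negative), with median effects of −0.80 in HC and −0.65 in EC, epithelium and neural crest genes 0.03 (0 of 12, none at that level) and liver and yolk sac endoderm genes −0.14 (0 of 8, none).

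Across the 25 positive genes the libraries of GFP+ and GFP− HC did not overlap in 17, always with GFP+ above (13.0% of all tested genes). Those of EC did not overlap in 15, in 4 with GFP+ above (14.8% of all tested genes) and in 11 with GFP− above (16.7%). Across the 45 negative genes the EC libraries did not overlap in 44, in 42 with GFP+ above and in 2 with GFP− above. The HC libraries did not overlap in 28, in 23 with GFP+ above and in 5 with GFP− above (10.5% of all tested genes). These counts follow from the values that chose the genes and are given as a description. Of the positive genes 6 averaged under 1 FPKM in both EC groups, namely Gpr171, Flt3, Treml2, Pstpip1, Pglyrp2 and Myb, so that their GFP effect in EC was measured close to the floor of the log scale.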

How the data were processed

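The authors deposited 1 table of FPKM values per gene symbol for the 12 libraries, made from poly(A)-selected RNA per the labels' protocols. The submitters' processing notes name mm9 as the build and list DESeq, edgeR, featureCounts and Cufflinks without saying what each did. The aligner and annotation were not given in the sources used here. FPKM is no count, so no count test was run.

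Groups and replicate numbers came from the sample titles. Genes that reached 1 FPKM in 3 or more libraries were tested on log2(FPKM + 1), which understates changes of weakly expressed genes, with limma 3.58.1 in R 4.3.3 (4 group means, 8 residual degrees of freedom, moderation with an intensity trend). Tests were two-sided with Benjamini-Hochberg adjustment over 13278 genes. The script was tested on simulated data. The labels call the pools independent, and p-values therefore reflect pool-to-pool spread. Values after ± are SE for effects and differences (n = 3 libraries per population), and folds are ratios of mean FPKM.

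Named genes were the 10 largest positive and negative differences at a mean FPKM of 5 or more, excluding gene models and small RNAs, a fixed set of 11 sort and marker genes, up to 3 called members of each list with the smallest p and the 1 in the other direction, and up to 6 with both effects passing. Some genes outside this rule are also described, among them Eln, Gfi1, Runx1, Lamb3, Neurl3, Slc4a1 and Pcsk5. The genes described and the 27 lists were chosen with earlier results of these data known. Lists are described by counts and medians without a set test. Alternatives were a pseudocount of 0.1, other filters, 3 scalings, no trend, quality weights, a replicate block and leaving out each library.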

Additional observations from a re-analysis of the deposited data

Results flagged for a closer look

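For the named genes below, the GFP effect differed between HC and EC by limma's test of the difference itself. Values are the difference of effects on the log2(FPKM + 1) scale. Toward a higher effect in HC these were Gpr56 (2.083), Myb (2.077), Pstpip1 (1.741), Treml2 (1.714), Dapp1 (1.561), Flt3 (1.531), Spn (1.488), Ltb (1.381), Tbc1d10c (1.367), Dnmt3b (1.198), Gmfg (1.145) and Mycn (0.8798). Toward a higher effect in EC these were Fbln5 (−2.672), Htra1 (−2.447), Pi16 (−2.288), Pde3a (−2.286), Lamc3 (−2.189), Agr2 (−2.141), Fbn1 (−2.034), Bmp6 (−1.967), Apol7d (−1.963), Lama3 (−1.952), Hey2 (−1.824), Ltbp4 (−1.671), Ace (−1.643), Sptb (−1.422), Fn1 (−1.408), Unc5b (−1.285), Sema3g (−1.237), Jag1 (−1.181), Smad6 (−1.080) and Mmp2 (−0.8668). With 3 libraries in a population, single libraries could not be tested as outlying.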

How the results depend on the processing

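The positive and negative counts, 25 and 45 genes, were 11 and 28 with a pseudocount of 0.1, 11 and 28 with the stricter filter (mean FPKM of 5 or more), 10 and 30 among genes expressed in all 4 populations, 28 and 120 with equal FPKM sums and 179 and 181 with library quality weights. They were 35 and 56 with no filter, 17 and 55 with scaling by the median ratio, 28 and 64 with quantile normalization and 36 and 62 with no intensity trend. Leaving out 1 library gave 4 to 32 positive and 19 to 50 negative genes. Besides having fewer samples, a group left with 2 libraries was assumed to vary like the others. Of the positive genes 4 passed without each library in turn, and of the negative 19. Gpr56, Tbc1d10c and Gmfg were the 3 positive genes that passed in every alternative in which they were tested. The cause of the other moves was not tested. A replicate block gave 20 positive and 51 negative genes. It kept 16 of the 25 and 39 of the 45. Under the block Pstpip1 (limma, adjusted p = 0.0644), Agr2 (0.0514), Fbn2, Neurl3, AI662270, Ptma, Thoc7, Tbca, Nsa2, Nol7, Lsm5, Cyp26a1, Syt15, Ctsw and Ctsh did not pass. Same-numbered libraries correlated in their deviations by −0.08 to 0.27 (median 0.05, 4 of 18 pairs over 0.1). Pairs with another number correlated by −0.22 to 0.22 (median −0.03, 3 of 36 over 0.1). Of the 12 libraries 6 correlated best with their own number. The main test did not take the numbers to pair the samples, and whether same-numbered libraries share an origin was not tested. Without known depth, levels near 0 FPKM are the least certain.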
